A study of Mus musculus with 15 samples.

Results

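The extracellular matrix is the mesh of secreted proteins that surrounds fat cells and their precursors. The transcripts of 42 of its non-collagen components were examined. They were chosen by name from the count table, with earlier results of these data known. The 42 comprised 13 glycoproteins of the pericellular matrix, most of them matricellular, 11 elastic fibre and microfibril proteins, 10 basement membrane proteins, and 8 proteoglycans. They were 42 of 18804 genes in the table, and all 42 were among the 14293 genes with enough counts to be tested.

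Total RNA was sequenced from white adipocytes that had been differentiated in culture from mesenchymal stem cells of C57BL/6J mice, which the study isolated from ears. Adipogenesis was induced in every group with methylisobutylxanthine, dexamethasone, insulin and troglitazone, and the cells were fed with serum alone from day 4 onward. Another part of the study's methods names rosiglitazone in place of troglitazone. The day 0 group was kept at 37°C, the day 1 group spent the last day of culture at 31°C, and the day 12 group entered the 31°C incubator on day 4 of differentiation. All cells were harvested on day 16, with 5 libraries in each of the 3 groups. The day 12 cells therefore passed through most of their differentiation at 31°C, so that time in the cold and the stage at which it began cannot be told apart. Whether the libraries stand for separate mice or for separate dishes is not given in the sources used here, and p-values measure the spread between these libraries, which may be technical. Total counts ranged from 64648178 to 133270973 per library.

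In white adipose tissue each mature adipocyte is wrapped in a basement membrane of laminin, type IV collagen, nidogen and perlecan, while the space between cells holds fibronectin, fibrillin microfibrils, elastic fibres and small leucine-rich proteoglycans that coat collagen fibrils. Fibroblast-like precursors deposit much of the fibrillar matrix, and its composition shifts toward basement membrane as precursors become adipocytes. Matricellular proteins are secreted into the matrix but act mainly on cell adhesion and growth factor activity. The members together took between 9.01% and 9.99% of all counts in each library, and Fn1 alone took between 2.97% and 3.82%.

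Matrix transcripts changed in both directions at 31°C, and more of them were called lower than higher under TMM scaling, whereas scaling to reference genes turned that split at day 12. A gene was called at an adjusted p under 0.05 in edgeR's quasi-likelihood test, with Benjamini-Hochberg adjustment over all genes tested, and a fold change over 1.5. At day 1, Thbs3 and Tgfbi were called higher than at day 0, which is 2 of 42 members (4.76%) against 7.71% of all genes tested. Tnxb, Fbln1, Emilin1, Agrn, Aspn and Prelp were called lower at day 1, or 6 of 42 members (14.3%) against 13.4% of all genes, so that neither share stood above the background by much. At day 12, 8 members (19.0%) were called higher than at day 0, against a background of 13.0%. They were Thbs1, Thbs2, Thbs3, Tnc, Fbn2, Emilin2, Mfap5 and Lama2. Another 16 members (38.1%) were called lower, against a background of 16.2%: Postn, Tnxb, Matn2, Ecm1, Fbln1, Fbln5, Eln, Emilin1, Agrn, Bgn, Lum, Fmod, Ogn, Aspn, Prelp and Vcan. Because the members were chosen with earlier results of these data known, a share above the background is no independent test. Both comparisons share the day 0 libraries. No member was called in opposite directions in them, and 17 members were called in neither.

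Day 12 was also compared with day 1 directly. Thbs2, Thbs3, Fbn1, Fbn2, Emilin2, Mfap5 and Lama2 were called higher at day 12 than at day 1, or 7 of 42 members (16.7%) against 10.6% of all genes. Fbn1, at 0.589 on the log2 scale, lay closest of the 7 to the fold limit of 0.585. In several alternative fits 6 members were called higher. Ecm1, Fbln1, Fbln5, Eln, Bgn, Lum, Fmod, Ogn and Vcan were called lower, or 9 of 42 members (21.4%) against 8.53%. The median log2 fold change of the 42 members was -0.15 at day 1 and -0.35 at day 12, and the medians of all genes tested were -0.0088 and 0.012.

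Levels are CPM, counts scaled to a common library size by TMM, which sets the bulk of genes to no change, and every direction given here is relative to that bulk. When total counts alone were used, the median of all genes at day 12 moved to 0.21, and 10 members were called higher and 13 lower, against 20.9% and 11.7% of all genes. When libraries were scaled to 4 reference genes, that median moved to 0.85, and 21 members were called higher and 2 lower, against 67.9% and 4.50% of all genes. The reference genes were themselves below the bulk of genes at day 12 under TMM, with log2 fold changes of -0.25 for Hprt, -0.27 for Tbp, -0.70 for Gapdh and -2.12 for B2m. Without B2m, an alternative chosen after seeing the data, the median of all genes was 0.42, and 15 members were called higher and 8 lower, against 35.7% and 8.42% of all genes. Of the members called lower at day 12 under TMM, Fbln1 and Ogn remained called with the 4 reference genes. The values there were -0.25 for Tnxb, -0.39 for Ecm1, -0.043 for Fbln5, -0.29 for Eln and -0.33 for Agrn, all within the fold limit. At day 1 the count of members called lower was 4 in place of 6. The median of the members lay 0.36 below that of all genes at day 12 under TMM. The difference was the same under total counts and under the reference genes with or without B2m. Scaling moves all genes nearly alike, so that sameness was bound to follow and is no further test. The measured RNA came from whole cultures, so fewer cells of a type and less RNA per cell cannot be told apart.

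**Figure D1:**
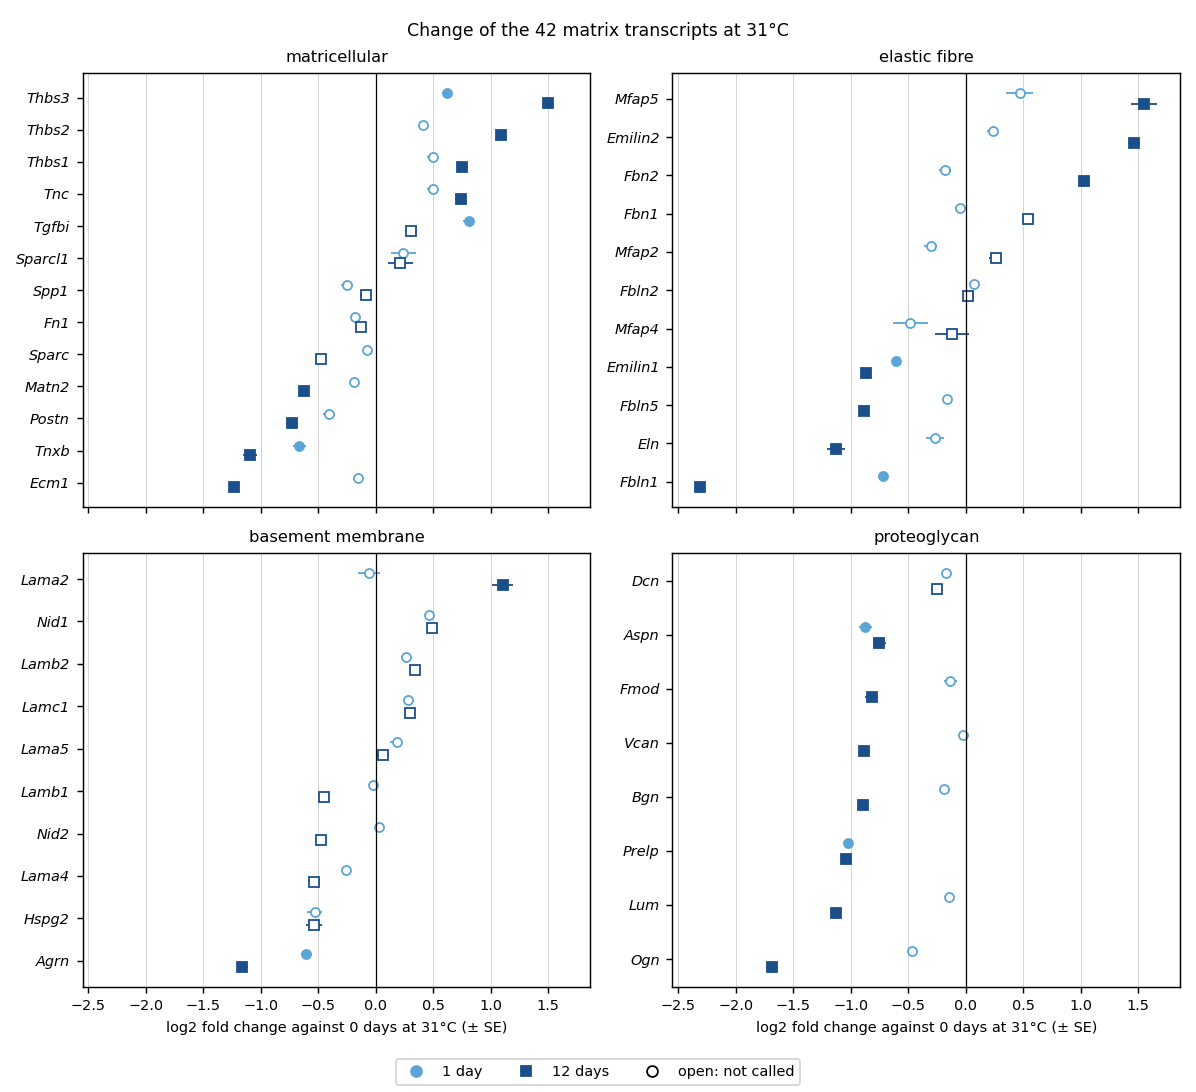
Log2 fold change (x axis, ± SE) of each of the 42 transcripts (y axis) at day 1 (circles) and day 12 (squares) against day 0, grouped by role, with filled symbols for called changes, 5 libraries per group and TMM scaling. All 8 proteoglycans lie left of 0 at day 12, where with scaling to reference genes Dcn (0.59), Fmod (0.025) and Aspn (0.087) lie right of it and Ogn alone of the 8 remains called, and Fbln1 lies farthest left of the 42 at -2.31.

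Promoter sequences were read for some members, because several rose or fell together and the sequence just upstream of the start is the shortest stretch of regulatory DNA that can be set beside those values. RefSeq promoters on GRCm38.p6, running from 250 bases before to 50 bases after each annotated start, were available for 29 of the 42 members (37 promoters). The following runs give the 250 bases before the start, 5′ to 3′ on the gene's strand, for members of large change in the 4 role groups. Capitals mark TATAAA and GGGCGG, the letters read by the TATA-binding protein and by SP1, on either strand.
Thbs3, chr3:89214930-89215179, plus strand: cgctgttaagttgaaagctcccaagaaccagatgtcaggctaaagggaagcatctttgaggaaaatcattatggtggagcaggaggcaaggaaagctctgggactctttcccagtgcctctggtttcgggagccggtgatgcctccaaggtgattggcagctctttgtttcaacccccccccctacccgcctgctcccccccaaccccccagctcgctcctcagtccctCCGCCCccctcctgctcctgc
Ecm1, chr3:95739570-95739819, minus strand: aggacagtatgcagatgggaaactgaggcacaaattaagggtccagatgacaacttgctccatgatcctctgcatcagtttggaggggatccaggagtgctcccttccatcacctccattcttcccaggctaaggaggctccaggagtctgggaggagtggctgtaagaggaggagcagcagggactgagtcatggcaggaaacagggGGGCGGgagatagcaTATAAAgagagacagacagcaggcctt
Fbln1, chr15:85205699-85205948, plus strand: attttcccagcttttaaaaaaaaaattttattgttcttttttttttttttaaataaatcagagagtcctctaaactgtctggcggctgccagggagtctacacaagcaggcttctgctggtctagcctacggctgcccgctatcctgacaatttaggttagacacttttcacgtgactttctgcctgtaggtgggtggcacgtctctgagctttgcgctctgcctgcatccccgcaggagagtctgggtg
Agrn, chr4:156197489-156197738, minus strand: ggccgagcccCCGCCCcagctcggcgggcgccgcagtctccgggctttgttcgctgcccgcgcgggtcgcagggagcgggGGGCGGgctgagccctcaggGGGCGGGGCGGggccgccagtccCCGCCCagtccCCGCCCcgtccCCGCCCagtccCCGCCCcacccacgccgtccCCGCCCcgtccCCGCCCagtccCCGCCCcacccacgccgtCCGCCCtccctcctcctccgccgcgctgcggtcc
Ogn, chr13:49607765-49608014, plus strand: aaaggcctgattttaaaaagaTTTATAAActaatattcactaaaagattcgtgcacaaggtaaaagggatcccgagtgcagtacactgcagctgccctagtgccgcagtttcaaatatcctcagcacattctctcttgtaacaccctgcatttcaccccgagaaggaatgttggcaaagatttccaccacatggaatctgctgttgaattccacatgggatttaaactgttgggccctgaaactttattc
The run of Agrn, the member with the steepest fall in the basement membrane group, held 83.6% G and C and repeated copies of GGGCGG, whereas that of Ogn held 42% and had TATAAA only far upstream of its start. Ecm1 had TATAAA 27 bases before its start. Fbln1 had neither of these motifs in the window shown, but a second annotated promoter window, chr15:85205758-85206007, held GGGCGG 11 bases before its start.

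Over all 32851 promoters of the same length, GGGCGG was found in 35.7% and TATAAA in 13.6%, against 54.1% and 21.6% of the members' 37. The letters TGANTCA (AP-1) were found in 5.41% of the members' promoters against 7.81% of all, GGAATG (TEAD) in 10.8% against 14.7%, ACGTG (HIF) in 10.8% against 19.6%, GTCTG (SMAD) in 64.9% against 49.6%, and the CArG box of serum response factor in 2.7% against 1.63%. Both strands were searched, several promoters hold more than 1 motif, and the motifs were chosen after the changes were known. A match describes these letters only.

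The matricellular group of 13 held 4 members that rose and 4 that fell at day 12, against 13.0% and 16.2% of all genes. The 3 thrombospondins among the members (Thbs1, Thbs2 and Thbs3) and tenascin C were the 4 that rose. The other thrombospondins are no members and were looked up after the members' values were seen. Thbs4 averaged 10.3, 8.48 and 12.2 CPM in the 3 groups in order of time and was not called at day 12 (log2 fold change of 0.25, edgeR adjusted p of 0.0927), and Comp, thrombospondin 5, fell by 2.02 on the log2 scale (adjusted p of 6.02e-23). Thbs3, which encodes a pentameric thrombospondin (chr3:89215180-89226837 on the plus strand), measured 17.0, 18.9, 18.7, 17.7 and 16.6 CPM at day 0, 25.2, 27.0, 27.2, 29.1 and 28.2 at day 1, and 51.6, 53.0, 49.0, 48.7 and 49.4 at day 12. The 3 groups did not overlap, and the day 12 libraries stood above all day 1 libraries, which stood above all day 0 libraries. The log2 fold change of Thbs3 was 0.62 ± 0.044 (SE) at day 1, with an adjusted p of 5.49e-12, and 1.5 ± 0.043 (SE) at day 12, with an adjusted p of 1.21e-19. Its day 1 change lay close to the fold limit: it was 0.55, and not called, in the 11 libraries of one run of sample numbers. Opposite-strand exons of Mtx1 cover 6.59% of the Thbs3 exon bases.

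Thbs2, a trimeric thrombospondin and inhibitor of angiogenesis, averaged 267 ± 13.8, 356 ± 13.9 and 569.5 ± 15.9 CPM at days 0, 1 and 12 (SD, n = 5), a log2 fold change of 0.41 after 1 day and 1.09 after 12 days (adjusted p of 5.57e-19). Its relative Thbs1, which can activate latent TGF-β, averaged 4133 ± 222, 5828 ± 265 and 6966 ± 685 CPM at days 0, 1 and 12, a change of 0.50 after 1 day and 0.75 after 12 days (adjusted p of 1.29e-12). Tnc, a tenascin of remodelling tissue, averaged 124 ± 7.78, 175 ± 11.3 and 207 ± 14.3 CPM at days 0, 1 and 12, a change of 0.50 after 1 day and 0.74 after 12 days (adjusted p of 9.32e-13). At day 1 Thbs1, Thbs2 and Tnc already lay above day 0 in every library, with adjusted p under 0.05 but a change under the fold limit. Per kilobase of exon, the level of Thbs3 was 0.00544 ± 0.000589 of that of Thbs1 at day 0 and 0.00919 ± 0.00113 at day 12 (SD, n = 5), so the thrombospondin with the steepest rise remained the scarcest of the 3.

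Ecm1, a secreted glycoprotein that binds perlecan and other matrix proteins (chr3:95734147-95739569 on the minus strand), measured 1806, 1626, 1766, 1606 and 1742 CPM at day 0, 1641, 1541, 1396, 1555 and 1573 at day 1, and 702, 793, 723, 731 and 687 at day 12. Every day 12 library lay below every day 0 and day 1 library, while day 0 and day 1 overlapped. Its log2 fold change was -0.15 ± 0.042 (SE) at day 1 (adjusted p of 0.00275) and -1.23 ± 0.043 (SE) at day 12 (adjusted p of 3.85e-18), and day 12 differed from day 1 by -1.08 ± 0.042 (SE). Tnxb, a tenascin that organizes collagen fibrils (chr17:34670535-34719815 on the plus strand), measured 27.3, 25.4, 26.1, 24.8 and 26.2 CPM at day 0, 16.7, 18.0, 16.0, 17.4 and 14.0 at day 1, and 13.0, 12.3, 11.2, 13.1 and 11.3 at day 12. The groups were fully separated and stepped downward with time at 31°C, with changes of -0.67 ± 0.058 (SE) at day 1 (adjusted p of 2.66e-10) and -1.09 ± 0.059 (SE) at day 12 (adjusted p of 2.21e-14).

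Tgfbi, an adhesive protein induced by TGF-β (chr13:56609523-56639562 on the plus strand), had the largest rise of the group at day 1. It measured 17.6, 19.0, 18.4, 17.3 and 20.5 CPM at day 0, 31.2, 34.4, 29.7, 33.2 and 34.1 at day 1, and 23.6, 21.5, 23.9, 22.2 and 23.6 at day 12. The 5 day 1 libraries lay above all others, and the day 12 libraries lay between day 0 and day 1. The log2 fold change was 0.81 ± 0.049 (SE) at day 1 (adjusted p of 4.21e-13) and 0.31 ± 0.050 (SE) at day 12 (adjusted p of 5.37e-06, under the fold limit), and the direct difference of day 12 from day 1 was -0.50 ± 0.049 (SE) (adjusted p of 3.11e-09).

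Postn, a periostin that promotes collagen assembly, averaged 2147 ± 246, 1616 ± 76.7 and 1294 ± 51.4 CPM at days 0, 1 and 12 (SD, n = 5), and Matn2, a filament-forming matrilin, averaged 187 ± 6.91, 164 ± 5.76 and 121 ± 5.02 CPM at days 0, 1 and 12. Both were called lower at day 12, at log2 fold changes of -0.73 and -0.62, but with total counts these were -0.54 and -0.43 and no longer called, and with reference genes they turned to 0.11 and 0.22. The day 1 differences were -0.41 for Postn and -0.19 for Matn2. Sparc, a collagen-binding matricellular protein that restrains adipogenesis, averaged 5622 ± 89.4, 5328 ± 134 and 4044 ± 93.1 CPM at days 0, 1 and 12, a difference of -0.077 after 1 day and -0.48 after 12 days. Sparcl1, its close relative, differed by 0.24 after 1 day and 0.22 after 12 days, with adjusted p of 0.0560 and 0.0808. Fn1, fibronectin, had the highest CPM of the members at 36971 ± 1479, 32729.7 ± 1299.8 and 33802 ± 1597 CPM at days 0, 1 and 12, a difference of -0.18 after 1 day and -0.13 after 12 days. For Spp1, osteopontin, the levels were 15002 ± 1427, 12596 ± 872 and 14143 ± 548 CPM at days 0, 1 and 12, and the differences were -0.25 after 1 day and -0.085 after 12 days (adjusted p of 0.136 at day 12). A same-strand gene model, Gm42793, covers 18.8% of the Spp1 exon bases, and reads in it cannot be divided between them.

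**Figure D2:**
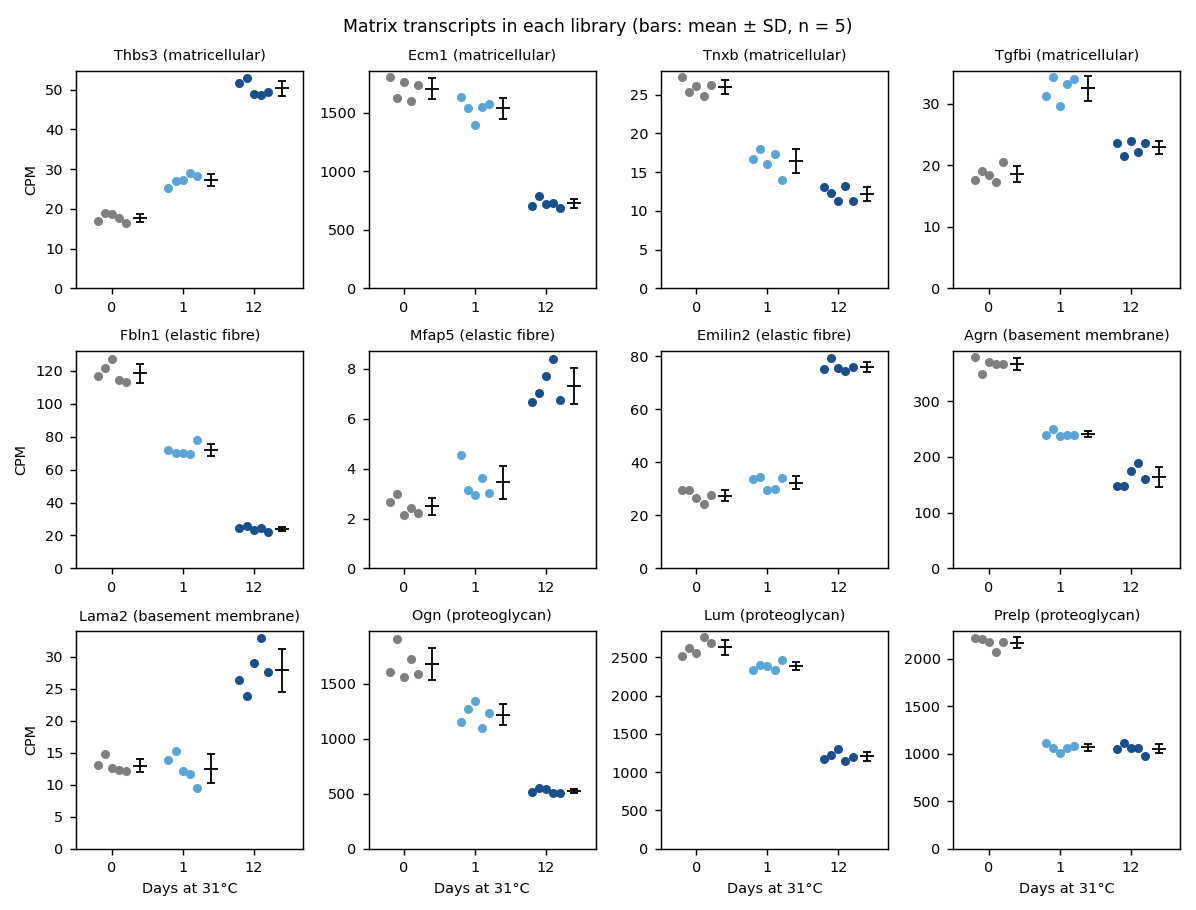
CPM (y axis, from 0) in each library by days at 31°C (x axis) for the 12 transcripts with the largest called changes in their role group, with the mean ± SD of 5 libraries beside the points. The day 12 libraries of Ecm1, Fbln1, Agrn, Ogn and Lum all lie below the day 0 libraries, those of Thbs3, Mfap5, Emilin2 and Lama2 all lie above them, and Tgfbi is highest at day 1.

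Among the 11 elastic fibre and microfibril genes, 3 were called higher and 4 lower at day 12, against 13.0% and 16.2% of all genes. The median log2 fold change of the 11 was 0.019. Fbln1, a fibulin that binds fibronectin, laminin and elastic fibres (chr15:85205949-85286535 on the plus strand), measured 117, 122, 127, 114 and 113 CPM at day 0, 72.2, 70.3, 70.2, 69.4 and 78.0 at day 1, and 24.6, 25.6, 23.2, 24.5 and 22.1 at day 12. The groups were far apart, with the day 12 libraries in a narrow range at the bottom. Its log2 fold change was -0.72 ± 0.040 (SE) at day 1 (adjusted p of 5.91e-14) and -2.31 ± 0.042 (SE) at day 12 (adjusted p of 3.11e-23), with a difference of -1.59 ± 0.042 (SE) between day 12 and day 1 (adjusted p of 7.04e-20). These were the largest day 12 changes among the members, and Fbln1 fell under each scaling tried.

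Fbln5, a fibulin needed to assemble elastin on microfibrils, fell as well, from 854 ± 16.1 CPM at day 0 to 464 ± 18.4 CPM at day 12 (SD, n = 5), a change of -0.88 (adjusted p of 6.65e-19) against -0.16 at day 1. Eln itself, the tropoelastin gene, fell from 8.97 ± 0.845 to 4.10 ± 0.336 CPM, a change of -1.13 (adjusted p of 3.95e-12) against -0.27 at day 1. Emilin1, an elastin-associated glycoprotein of microfibrils, averaged 752 ± 34.6, 493 ± 11.7 and 411 ± 16.2 CPM at days 0, 1 and 12, a change of -0.61 after 1 day and -0.87 after 12 days (adjusted p of 2.71e-14 and 1.58e-17). With reference genes neither was called, at -0.56 and -0.031. Fbln2, a further fibulin, differed by 0.077 after 1 day and 0.019 after 12 days, with adjusted p of 0.0625 and 0.643. Its levels overlapped between all groups, at 1299 ± 43.8, 1370.3 ± 69.5 and 1317 ± 65.2 CPM at days 0, 1 and 12.

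Emilin2, the paralog of Emilin1, went the other way (chr17:71252172-71311978 on the minus strand). It measured 29.6, 29.5, 26.4, 24.4 and 27.6 CPM at day 0, 33.8, 34.5, 29.4, 29.8 and 34.3 at day 1, and 75.2, 79.3, 75.7, 74.5 and 75.8 at day 12. Day 0 and day 1 libraries overlapped, and every day 12 library lay far above both. The log2 fold change was 0.23 ± 0.051 (SE) at day 1 (adjusted p of 2.29e-04) and 1.47 ± 0.050 (SE) at day 12 (adjusted p of 3.05e-18). Per kilobase of exon, the ratio of Emilin2 to Emilin1 was 0.0328 ± 0.00319, 0.0589 ± 0.00395 and 0.166 ± 0.00591 in the 3 groups in order of time (SD, n = 5). Emilin1 remained the more abundant of the pair in every library.

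Mfap5, a microfibril-associated glycoprotein (chr6:122505845-122529290 on the plus strand), was a scarce transcript that rose. It measured 2.66, 2.99, 2.15, 2.41 and 2.20 CPM at day 0, 4.54, 3.15, 2.94, 3.63 and 3.01 at day 1, and 6.67, 7.02, 7.70, 8.41 and 6.75 at day 12. The day 12 libraries lay above all others, while days 0 and 1 overlapped at their edges. Its change was 0.47 ± 0.12 (SE) at day 1 (adjusted p of 0.00111, under the fold limit) and 1.55 ± 0.11 (SE) at day 12 (adjusted p of 8.55e-12). Mfap2, its relative, averaged 16.3 ± 0.843, 13.2 ± 0.691 and 19.6 ± 1.90 CPM at days 0, 1 and 12 (SD, n = 5), a difference of -0.30 after 1 day and 0.26 after 12 days (adjusted p of 6.63e-05 and 2.59e-04), and the 2 differences had opposite signs. Mfap4, an elastic fibre protein of the fibrinogen-like family, was near 1.36 CPM over all libraries and differed by -0.48 after 1 day and -0.12 after 12 days (adjusted p of 0.00675 and 0.457).

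Fbn2, the fibrillin that predominates in development, averaged 63.0 ± 3.96, 55.7 ± 5.16 and 129 ± 4.46 CPM at days 0, 1 and 12 (SD, n = 5). It rose by 1.03 ± 0.049 (SE) at day 12 (adjusted p of 2.32e-15) after a difference of -0.18 ± 0.050 (SE) at day 1 (adjusted p of 0.00264), and day 12 exceeded day 1 by 1.21 ± 0.050 (SE) (adjusted p of 3.26e-16). Fbn1, the main fibrillin of adult microfibrils, averaged 196 ± 9.58, 190.2 ± 16.7 and 286 ± 18.5 CPM at days 0, 1 and 12, a difference of -0.045 after 1 day and 0.54 after 12 days; the latter had an adjusted p of 5.30e-10 and a fold under the limit. Opposite-strand exons of Gm9913 cover 20.1% of the Fbn1 exon bases, and the strand setting of the counting is not given in the sources used here. The ratio of Fbn2 to Fbn1 per kilobase of exon was 0.296 ± 0.0280, 0.269 ± 0.00977 and 0.414 ± 0.0233 in the 3 groups in order of time (SD, n = 5), so Fbn1 stayed the more abundant fibrillin.

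Of the 10 basement membrane transcripts, 1 was called higher, 1 called lower and 8 not called at day 12. Neither count stood above the background of 13.0% of all genes called higher and 16.2% lower. Agrn, a heparan sulfate proteoglycan that binds laminin and dystroglycan (chr4:156165290-156197488 on the minus strand), measured 379, 349, 371, 366 and 366 CPM at day 0, 239, 250.1, 237, 239.8 and 239 at day 1, and 148, 148, 175, 189 and 161 at day 12. The groups were separated and stepped downward, with changes of -0.60 ± 0.047 (SE) at day 1 (adjusted p of 4.81e-11) and -1.16 ± 0.048 (SE) at day 12 (adjusted p of 1.34e-16). Its day 1 change was -0.58 with total counts and -0.55 with reference genes, both just under the fold limit. Lama2, the laminin alpha 2 chain of muscle and nerve basement membranes (chr10:26980036-27619758 on the minus strand), measured 13.0, 14.7, 12.5, 12.3 and 12.2 CPM at day 0, 13.9, 15.3, 12.2, 11.6 and 9.51 at day 1, and 26.3, 23.8, 29.0, 32.8 and 27.6 at day 12. Days 0 and 1 overlapped, and all day 12 libraries lay above them. The change was -0.057 ± 0.095 (SE) at day 1 (adjusted p of 0.604) and 1.11 ± 0.092 (SE) at day 12 (adjusted p of 7.88e-11).

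Neither of the other laminin alpha chains was called at day 12. Lama4, the alpha chain of adipocyte and vessel basement membranes, averaged 347 ± 9.06, 290.4 ± 8.90 and 240.0 ± 3.79 CPM at days 0, 1 and 12 (SD, n = 5), a difference of -0.26 after 1 day and -0.53 after 12 days (adjusted p of 4.32e-15 at day 12), close to but within the fold limit, and 0.30 with reference genes. Lama5, a widely expressed alpha chain, averaged 44.7 ± 3.57, 50.9 ± 5.01 and 46.6 ± 2.26 CPM at days 0, 1 and 12, a difference of 0.18 after 1 day and 0.061 after 12 days (adjusted p of 0.328 at day 12). Per kilobase of exon, Lama4 made up 85.9% ± 0.698 of the summed level of Lama2, Lama4 and Lama5 in the day 0 libraries, with 82.2% ± 1.10 after 1 day and 77.4% ± 0.939 after 12 days (SD, n = 5). The share of Lama2 was 2.37% ± 0.193, 2.60% ± 0.374 and 6.63% ± 0.626, and that of Lama5 was 11.7% ± 0.842, 15.2% ± 0.876 and 15.9% ± 0.421. With the longest coding transcript as the length, Lama4 held 91.6% at day 0 and 85.0% at day 12, so the order of the 3 chains was the same at either length. No test was made of these shares or of the ratios between related members, which were chosen with the levels known.

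The beta chains drew closer to each other. Lamb1, the beta chain of early laminins, averaged 688 ± 27.2, 675 ± 17.4 and 503 ± 14.4 CPM at days 0, 1 and 12 (SD, n = 5), a difference of -0.026 after 1 day and -0.45 after 12 days. Lamb2, the beta chain of mature muscle and kidney laminins, averaged 173 ± 5.18, 208 ± 4.23 and 219 ± 6.79 CPM at days 0, 1 and 12, a difference of 0.26 after 1 day and 0.34 after 12 days. The ratio of Lamb2 to Lamb1 per kilobase of exon was 0.411 ± 0.0128, 0.501 ± 0.0139 and 0.711 ± 0.0244 in the 3 groups in order of time (SD, n = 5), with no overlap between the groups. Lamc1, the gamma chain shared by most laminins, averaged 220.2 ± 6.09, 268 ± 13.7 and 271 ± 8.97 CPM at days 0, 1 and 12, a difference of 0.28 after 1 day and 0.30 after 12 days. Adjusted p at day 12 was 8.53e-13 for Lamb1, 5.60e-11 for Lamb2 and 1.06e-08 for Lamc1, each with a fold under the limit.

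Nidogens link the laminin and type IV collagen networks. Nid1 averaged 4558 ± 233, 6284 ± 175 and 6409.8 ± 179 CPM at days 0, 1 and 12 (SD, n = 5), a difference of 0.46 after 1 day and 0.49 after 12 days, most of which was present after 1 day. Nid2 averaged 168 ± 6.34, 171 ± 6.61 and 121 ± 4.88 CPM at days 0, 1 and 12, a difference of 0.031 after 1 day and -0.47 after 12 days. Both day 12 differences had adjusted p under 0.05 (9.85e-13 and 3.72e-12) and opposite signs under TMM (Nid2 was at 0.36 with reference genes), and the ratio of Nid1 to Nid2 per kilobase of exon was 20.3 ± 1.60, 27.4 ± 1.14 and 39.6 ± 1.30 in the 3 groups in order of time (SD, n = 5). Opposite-strand exons of Rtraf cover 8.45% of the Nid2 exon bases. Hspg2, which encodes perlecan, averaged 1818 ± 122, 1259 ± 158 and 1254 ± 91.8 CPM at days 0, 1 and 12, a difference of -0.53 after 1 day and -0.54 after 12 days (adjusted p of 1.31e-07 and 8.84e-08), again just inside the fold limit. Its level at day 1 and day 12 was nearly the same.

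**Figure D3:**
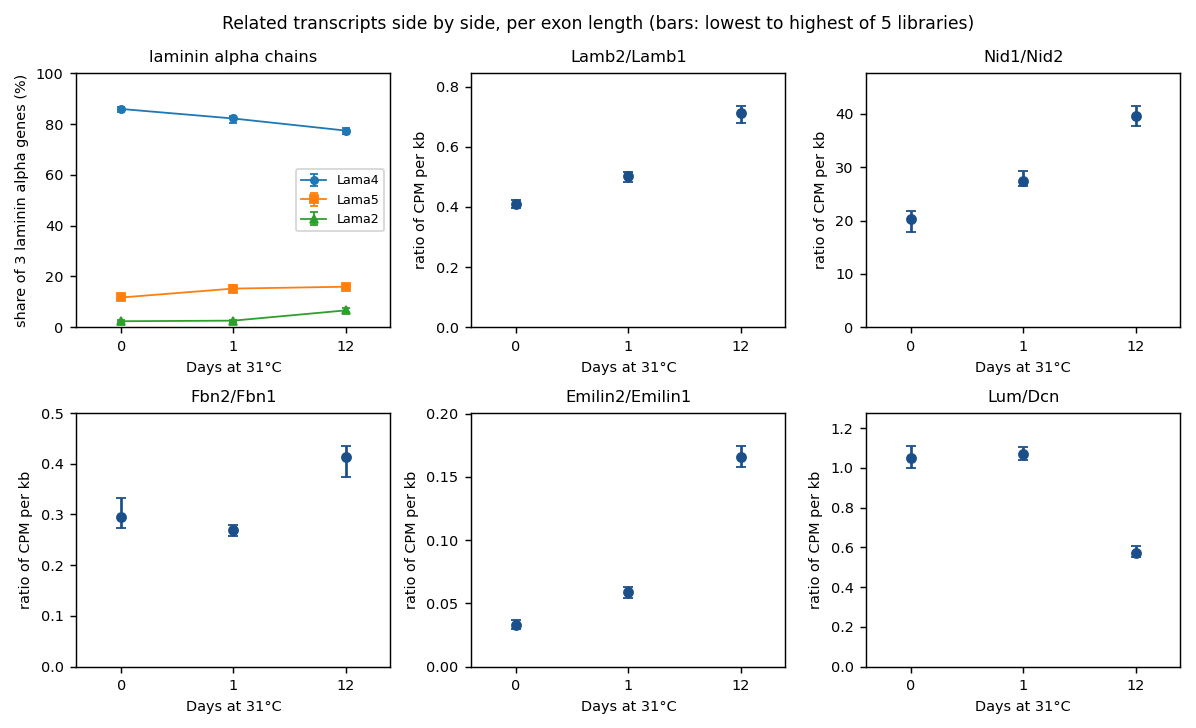
Shares of the 3 laminin alpha chains and ratios of 5 pairs of related transcripts (y axes, from CPM per kilobase of exon) by days at 31°C (x axis), with points at the mean and bars from the lowest to the highest of 5 libraries. The Lama2 share goes from 2.37% to 6.63%, the ratio of Emilin2 to Emilin1 from 0.0328 to 0.166, and that of Lum to Dcn from 1.05 to 0.570.

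Of the 8 proteoglycans, 7 were called lower at day 12, against 16.2% of all genes, and 2 at day 1, against 13.4%. None was called higher in either comparison under TMM, against 13.0% of all genes at day 12 and 7.71% at day 1. The median log2 fold change of the 8 was -0.18 at day 1 and -0.89 at day 12. Scaling to reference genes put Dcn at 0.59, Fmod at 0.025 and Aspn at 0.087 at day 12, against a median of all genes of 0.85. It also put Bgn at -0.058, Vcan at -0.039, Lum at -0.29 and Prelp at -0.21, within the fold limit, so that of the 7 only Ogn remained called. Without B2m among the reference genes, Lum, Ogn and Prelp remained called. All but Vcan are small leucine-rich proteoglycans, which bind collagen fibrils and set their diameter.

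Ogn, osteoglycin (chr13:49608046-49624501 on the plus strand), measured 1605, 1912, 1565, 1727 and 1590.1 CPM at day 0, 1155, 1270.4, 1342, 1097 and 1231 at day 1, and 515, 551, 539.7, 502 and 510.1 at day 12. The groups did not overlap, and the day 12 libraries lay within a narrow range far below the rest. Its change was -0.46 ± 0.051 (SE) at day 1 (adjusted p of 1.53e-08, under the fold limit) and -1.68 ± 0.052 (SE) at day 12 (adjusted p of 4.68e-19). Lum, lumican (chr10:97565128-97572703 on the plus strand), measured 2519, 2627, 2552, 2764 and 2691 CPM at day 0, 2337, 2394, 2385, 2335 and 2467 at day 1, and 1167, 1222, 1304, 1146 and 1191 at day 12. Day 1 libraries lay just below day 0, and day 12 libraries lay far below both. The change was -0.14 ± 0.033 (SE) at day 1 (adjusted p of 4.49e-04) and -1.13 ± 0.033 (SE) at day 12 (adjusted p of 1.92e-19).

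Prelp, which anchors basement membranes to collagen (chr1:133910304-133921414 on the minus strand), had the largest day 1 change among all 42 members. It measured 2222, 2209, 2180.1, 2070.2 and 2173 CPM at day 0, 1112, 1057, 1010.1, 1063 and 1084 at day 1, and 1047, 1115, 1059, 1064 and 978 at day 12. All libraries at 31°C lay below all day 0 libraries, and days 1 and 12 overlapped. The change was -1.03 ± 0.032 (SE) at day 1 (adjusted p of 2.18e-18) and -1.04 ± 0.032 (SE) at day 12 (adjusted p of 5.25e-19), with a difference of -0.018 ± 0.032 (SE) between day 12 and day 1 (adjusted p of 0.645). An antisense gene, Gm15851, covers 9.68% of the Prelp exon bases. Aspn, asporin, an inhibitor of TGF-β, had a like course, with 399 ± 39.2, 218 ± 18.2 and 237 ± 9.37 CPM at days 0, 1 and 12 (SD, n = 5) and a change of -0.87 after 1 day and -0.75 after 12 days (adjusted p of 8.08e-13 and 8.33e-12), although its day 12 change was -0.56 and not called with total counts and turned to 0.087 with reference genes.

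Bgn, biglycan, averaged 11346 ± 238, 9972 ± 209 and 6101 ± 284 CPM at days 0, 1 and 12 (SD, n = 5), a change of -0.19 after 1 day and -0.90 after 12 days (adjusted p of 1.95e-18). Fmod, fibromodulin, averaged 1293 ± 118, 1179 ± 69.2 and 734 ± 67.5 CPM at days 0, 1 and 12, a change of -0.13 after 1 day and -0.82 after 12 days (adjusted p of 3.78e-12) that turned to 0.025 with reference genes. Vcan, the large hyaluronan-binding proteoglycan versican, averaged 215 ± 6.15, 212 ± 19.3 and 117 ± 6.03 CPM at days 0, 1 and 12, a change of -0.022 after 1 day and -0.88 after 12 days (adjusted p of 2.48e-14). Dcn, decorin, was the exception, with 5983 ± 206, 5323 ± 29.6 and 5042 ± 93.1 CPM at days 0, 1 and 12 and a difference of -0.17 after 1 day and -0.25 after 12 days (adjusted p of 4.49e-09). The ratio of Lum to Dcn per kilobase of exon was 1.05 ± 0.0445, 1.07 ± 0.0240 and 0.570 ± 0.0217 in the 3 groups in order of time (SD, n = 5), and that of Dcn to Bgn was 0.551 ± 0.0273, 0.558 ± 0.0103 and 0.865 ± 0.0445 in the 3 groups in order of time (SD, n = 5). Which of these is the more abundant depends on the exon length used, since with the longest coding transcript the ratio of Lum to Dcn was 0.316 at day 0 and 0.172 at day 12.

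Levels of cell type markers were set beside these values. Of all genes tested, 13.0% were called higher and 16.2% lower at day 12. Adipocyte markers were abundant in every library, with a summed level of the 12 between 5042 and 5400 CPM at day 0, between 6027 and 6364 CPM at day 1, and between 5125 and 5476 CPM at day 12. At day 12, 3 of the 12 were called higher and 6 lower, with a median log2 fold change of -0.18. Within that list Fabp4, a fatty acid carrier, rose by 0.97 ± 0.045 at day 12 and Adipoq, adiponectin, fell by 1.24 ± 0.029 on the log2 scale (edgeR, adjusted p of 1.37e-15 and 3.06e-21). Stromal progenitor markers were also present, and their sum ran from 1906 to 1977 CPM at day 0, from 1841 to 1920 CPM at day 1 and from 1518 to 1533 CPM at day 12, with 5 of 10 tested called lower and none higher at day 12. Among them Ly6a averaged 591, 534 and 221 CPM at days 0, 1 and 12, and Pdgfra averaged 562, 661 and 712 CPM. Smooth muscle and pericyte markers, of which Acta2 was the most abundant, summed to between 785 and 871 CPM, 843 and 1000.3 CPM, and 637 and 761 CPM, and 6 of 10 were called lower at day 12.

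Chondrocyte markers summed to between 3739 and 4489 CPM at day 0, 4007 and 4154 CPM at day 1, and 1199 and 1301 CPM at day 12, with 88.6% of the level from Comp, a cartilage protein that fibroblasts express too. Of the 10 chondrocyte markers tested, 4 were called higher and 4 lower at day 12. Col2a1, the type II collagen of cartilage, averaged 149, 155 and 182 CPM in the 3 groups in order of time, Acan averaged 56.3, 61.7 and 28.8 CPM, Sox9 averaged 84.2, 64.3 and 48.8 CPM, and Col9a1 averaged 11.9, 20.1 and 24.5 CPM. Matn1 had at most 2 counts in any library. The part of these shifts in the fall of the proteoglycans, Ecm1 and Fbln1 was not tested. Mesothelial markers summed to between 48.4 and 62.7 CPM over all libraries, with Upk3b, Upk1b, Wt1 and Gpm6a at no more than 6 counts, although Msln averaged 0.628, 0.870 and 29.3 CPM at days 0, 1 and 12. The defining endothelial genes Cdh5, Tie1 and Emcn had at most 6 counts, the macrophage genes Ptprc, Itgam and Fcgr1 at most 16, the keratinocyte genes Krt5, Krt14 and Epcam at most 12, and the Schwann cell gene Sox10 at most 6. Summed levels ran from 2.51 to 6.80 CPM for endothelial, 26.4 to 48.6 CPM for macrophage, 20.9 to 66.4 CPM for keratinocyte (97.1% of it Trp63) and 243 to 328 CPM for Schwann cell markers (68.2% of it Pmp22).

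Other matrix genes were counted from 4 lists. The background for these counts is the share of all genes tested. It was 13.0% higher and 16.2% lower at day 12, and 7.71% and 13.4% at day 1. Of 35 integrins and other matrix receptors, 33 were tested, and 4 were called higher and 8 lower at day 12 against 1 and 4 at day 1, with a median log2 fold change of -0.23 at day 12. Itgb7, a leukocyte integrin beta chain, rose by 2.88 ± 0.15 at day 12 from a low level (0.522, 0.749 and 3.82 CPM at days 0, 1 and 12; adjusted p of 1.76e-14). Itga7, a laminin receptor chain, averaged 230.3, 289 and 106 CPM and changed by -1.12 ± 0.038, and Itga3, a further laminin receptor chain, averaged 55.1, 59.6 and 112 CPM and changed by 1.03 ± 0.038 (adjusted p of 3.05e-18 and 1.44e-17).

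Of the other basement membrane genes 16 were tested, with 3 called higher and 5 lower at day 12, none higher and 6 lower at day 1, and a median of -0.14 at day 12. Lamb3, the beta chain of laminin 332, averaged 22.2, 8.74 and 3.36 CPM and changed by -2.73 ± 0.086 at day 12 (adjusted p of 7.39e-19). Vwa1, a perlecan-binding protein, changed by -2.43 ± 0.17, and Papln, papilin, by -1.77 ± 0.057 (adjusted p of 2.78e-12 and 9.99e-19).

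A list of 61 other matrix glycoproteins and proteoglycans, 55 of them tested, was also counted. At day 12, 4 were called higher and 24 lower, and at day 1 none was called higher and 15 lower, with a median of -0.39 at day 12. Spon1, an F-spondin, averaged 101, 107 and 14.7 CPM, a change of -2.78 ± 0.055. Podn, podocan, a small leucine-rich relative of the members, averaged 225, 126 and 50.4 CPM, a change of -2.16 ± 0.056. Comp averaged 3716, 3708 and 919 CPM, a change of -2.02 ± 0.039 at day 12 against -0.0033 at day 1 (day 12 adjusted p of 1.09e-22, 1.72e-20 and 6.02e-23 for Spon1, Podn and Comp).

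Enzymes of glycosaminoglycan synthesis, which build the sugar chains of proteoglycans, were called in both directions. Of 45 listed and 42 tested, 5 were called higher and 5 lower at day 12 and 3 and 4 at day 1, and the median at day 12 was -0.032. Papss2, which makes the sulfate donor, averaged 47.8, 30.9 and 20.8 CPM, a change of -1.20 ± 0.035 (adjusted p of 1.49e-19). Hs3st3b1, a heparan sulfate sulfotransferase, changed by -1.89 ± 0.10, and Ndst3, a heparan sulfate N-deacetylase and sulfotransferase, by 1.40 ± 0.21 from under 1 CPM (adjusted p of 2.22e-14 and 2.25e-06).

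**Figure D4:**
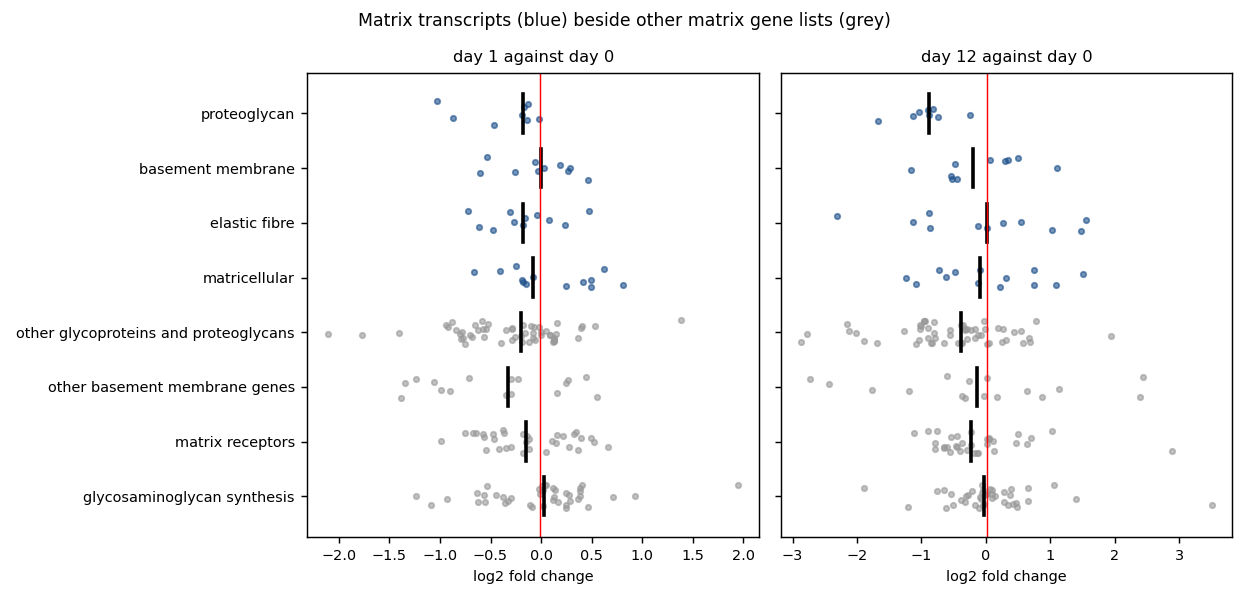
Log2 fold change (x axes) of the tested genes in the 4 groups of matrix transcripts (blue) and in 4 other matrix gene lists (grey), by list (y axis), at day 1 and day 12 against day 0; black bars are list medians and the red line is the median of all genes tested. The proteoglycan median stands at -0.89 at day 12 under TMM, with Dcn, Fmod and Aspn turning above 0 and Ogn alone remaining called under scaling to reference genes, and the glycosaminoglycan synthesis median stands at -0.032.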

How the data were processed

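RNA of 15 libraries was sequenced at the authors' core facility. Per the labels and the study's methods, the authors aligned reads to mouse build mm10 with TopHat2 2.0.13 and Bowtie2 2.2.1 and deposited raw counts per gene made with HTSeq. The annotation and strand setting are not given in the sources used here. Log2 values and result tables of DESeq2 were also deposited, the latter with the authors' fold changes and p-values for day 1 and day 12, and were not used.

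Groups came from the labels. All 15 libraries entered one quasi-likelihood fit in edgeR 4.0.16 (R 4.3.3) with TMM scaling, no covariate, and filterByExpr at a minimum count of 10, which left 14293 of 18804 genes. Calls required an adjusted p under 0.05 (Benjamini-Hochberg, all genes tested) and a fold over 1.5. Total counts, DESeq2 size factors, scaling to reference genes (and, chosen after seeing the data, to those except B2m), DESeq2 1.42.0, no filter, no fold limit, sample number run, replicate number and leaving out each library were the alternatives. The common dispersion gave a within-group coefficient of variation of 5.25%. A gene with no count could lie as high as 0.0225 CPM in the deepest library and 0.0464 CPM in the shallowest, for counting error only. The fit was tested on simulated data for day 12 against day 0 (14230 genes). Of genes changed 1.5, 2 and 4 times, 46 of 67, 67 of 67 and 66 of 66 were called. Changing so few genes does not test the choice of scaling, on which the day 12 calls depend.

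The 42 members and all lists were chosen with earlier results of these data known. All members are named. Values per library are given, in each role group, for up to 3 called members with the largest day 12 change and for the one with the largest day 1 change, at a mean of at least 1 CPM. From each other list up to 3 genes with the largest called day 12 change are named. Coordinates and exon lengths came from GENCODE vM21 on GRCm38, the same build as mm10, with levels per kilobase over the union of a gene's exons. Figures were drawn with matplotlib 3.10.9 in Python 3.11.15.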

Additional observations from a re-analysis of the deposited data

Results flagged for a closer look

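In 6 of 126 sets of 5 libraries, each a member in a group, the highest or lowest library stood apart from the other 4 by Dixon's test, at a critical value of 0.71; chance gives about 1 in 20, or 6.3 of 126. Eln was 10.4 CPM in day 0 replicate 3, with the others between 8.37 and 8.86. Emilin2 was 79.3 CPM in day 12 replicate 2, with the others between 74.5 and 75.8. Mfap4 was 1.08 CPM in day 12 replicate 4, with the others between 1.46 and 1.55. Agrn was 250.1 CPM in day 1 replicate 2, with the others between 237 and 239.8. Day 1 replicate 5 was low for Hspg2, at 986 CPM against 1278 to 1391 in the others, and for Vcan, at 178 CPM against 215 to 225. Leaving the library out changed no call of these members against day 0.

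For Fbn2 and Mfap2 the differences at day 1 and day 12 had opposite signs, and the direct comparison of day 12 with day 1, which tests that difference, passed the threshold of adjusted p in edgeR. Day 12 exceeded day 1 by 1.21 on the log2 scale for Fbn2 and by 0.56 for Mfap2, and the Mfap2 value is under the fold limit.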

How the results depend on the processing

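Against day 0, directions and calls of the members were identical to the reported ones with DESeq2 size factors, with DESeq2, with no filter on low counts and with the run of sample numbers as a covariate. For day 12 against day 1, 6 members in place of 7 were called higher with DESeq2 size factors, with DESeq2 and with that covariate. The larger run of sample numbers gave 6 as well. Total counts gave 8 higher and 6 lower, against 15.7% and 5.9% of all genes. The replicate numbers shared by the groups paired libraries weakly at most. Correlations of same-numbered libraries ran from -0.026 to 0.044, and 10 of 15 libraries were closest to their own number. A fit with the replicate number as a block kept the counts. They were 2 higher and 6 lower at day 1, 8 and 16 at day 12, and 7 and 9 for day 12 against day 1. Without the fold limit smaller changes count too. The counts were 11 and 24 at day 1, 14 and 23 at day 12, and 13 and 20 for day 12 against day 1. No share of all genes stands beside these counts, so they have no background. Scaling to reference genes gave 21 higher and 2 lower at day 12, against 67.9% and 4.5% of all genes. For day 12 against day 1 it gave 23 and 1, against 71.3% and 1.78%. This is a shift by construction, as the reference genes lay below the bulk of genes. Leaving B2m out of them, an alternative chosen after seeing the data, gave 15 and 8 at day 12, against 35.7% and 8.42% of all genes. For day 12 against day 1 it gave 11 and 4, against 26.7% and 4.17%. It turned the day 12 values of Fn1, Spp1, Mfap4 and Dcn to 0.28, 0.32, 0.29 and 0.16. The day 1 values of Fbn1, Lamb1 and Vcan turned to 0.00084, 0.021 and 0.024. With all 4 the day 12 log2 fold changes turned to 0.71 for Fn1, 0.11 for Postn, 0.36 for Sparc, 0.75 for Spp1, 0.22 for Matn2, 0.72 for Mfap4, 0.30 for Lama4, 0.39 for Lamb1, 0.36 for Nid2, 0.30 for Hspg2, 0.59 for Dcn, 0.025 for Fmod and 0.087 for Aspn, and those at day 1 to 0.0039 for Fbn1, 0.023 for Lamb1 and 0.028 for Vcan. Total counts turned the day 12 values of Fn1, Spp1 and Mfap4 to 0.064, 0.11 and 0.070. In the 11 libraries of the larger run of sample numbers 1 member was called higher at day 1, since Thbs3 fell under the fold limit, and day 1 values turned to 0.0065 for Fbn1, 0.068 for Lama2 and 0.060 for Vcan; the cause was not tested. Leaving out 1 library changed no member's call against day 0, and put the members higher at day 12 than at day 1 between 6 and 8 and those lower between 9 and 10. It turned the sign of 3 uncalled values, which ranged from -0.14 to 0.032 for Lama2 and from -0.043 to 0.036 for Vcan at day 1 (highest without day 1 replicate 5), and from -0.0043 to 0.042 for Fbln2 at day 12 (lowest without day 12 replicate 4).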
